A study of Mus musculus with 16 samples.

Results

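The miRNAs miR-21, miR-221 and miR-222 were followed in mouse sciatic nerves that had or lacked Dicer in Schwann cells, the glia that wrap peripheral axons. They were taken by name, as all array rows labelled mmu-miR-21, mmu-miR-221 or mmu-miR-222, because they are tied to proliferation and nerve injury. All 3 names were found among the 650 miRNA names of the array, with 2 probes of 10 spots for each, which made 6 of 1857 probes and 60 of 13000 spots. The RNA came from whole sciatic nerves and not from isolated Schwann cells, so that a level is that of the nerve, and fewer cells of a type cannot be told apart from less RNA per cell.

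Mutants carried Dicer1 fl/fl and Dhh-Cre, and controls carried Dicer1 wt/fl and Dhh-Cre, so that Cre and at least 1 floxed Dicer1 allele were shared by all mice. All were offspring of Dhh-Cre+ Dicer wt/flox mice crossed to Dicer flox/flox mice, of the strain Dicer1tm1Bdh/J, and the promoter of desert hedgehog, which is active in Schwann cells, drove Cre. Nerves of 4 control and 4 mutant mice were taken at embryonic day 17 (E17) and of 4 control and 4 mutant mice at postnatal day 4 (p4), which gave the groups wt-E17, fl-E17, wt-P4 and fl-P4. The study's methods describe the mice of each age as 4 littermate pairs of a mutant and a control, which the labels do not mark. Each mouse had its own 1-colour Agilent mouse miRNA array, 16 in all, hybridized with the same amount of total RNA. The study expected Dicer to be lost from Schwann cells only. Whether other cells of the nerve, such as fibroblasts, vessel cells and leukocytes, kept Dicer was not measured on the arrays.

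miRNAs are cut by Dicer from hairpin precursors, and 1 arm of the hairpin then guides a silencing complex to mRNAs, mainly through bases 2 to 8 of the miRNA, the seed. miR-21 is an abundant miRNA of many tissues that is raised in tumors and in injured tissue, and its known targets include the growth inhibitors Pdcd4 and Spry1. miR-221 and miR-222 come from neighbouring hairpins, share a seed and target Cdkn1b, which encodes the cell cycle inhibitor p27, so that they are known as promoters of proliferation. Levels of these miRNAs are known to rise in peripheral nerves after injury, when Schwann cells dedifferentiate and divide. The comparisons ask how their levels in the nerve change between E17 and p4, when myelination starts, and with the loss of Dicer from Schwann cells.

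The mature sequences are shown because the shared seed of miR-221 and miR-222 and the separate seed of miR-21 define which mRNAs they can pair with. All 3 names were matched to RefSeq (GRCm38.p6), where the array's mmu-miR-21 is the 5p arm of Mir21a and the other two are the 3p arms of Mir221 and Mir222. The seed is in capitals.
miR-21 (mmu-miR-21a-5p): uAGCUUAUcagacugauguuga
miR-221 (mmu-miR-221-3p): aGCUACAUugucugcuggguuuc
miR-222 (mmu-miR-222-3p): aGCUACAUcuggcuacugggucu

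miR-221 and miR-222 are both 23 bases long and hold the same base at 11 of 23 positions counted from the 5′ end, while miR-21 has 22 bases. Among the 1738 mature mouse miRNAs of the RefSeq table, the miR-21 seed was also held by miR-21c, and the seed of miR-221 and miR-222 by miR-1928. Neither of these names was on the array, so that no other miRNA with the same seed was measured. The hairpins that Dicer has to cut are shown with the mature arm in capitals, because the deleted enzyme acts on them.
Mir21a: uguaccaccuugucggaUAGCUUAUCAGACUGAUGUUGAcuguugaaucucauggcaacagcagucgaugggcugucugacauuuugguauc
Mir221: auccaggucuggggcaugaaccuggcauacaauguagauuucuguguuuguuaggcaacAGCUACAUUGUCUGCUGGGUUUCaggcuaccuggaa
Mir222: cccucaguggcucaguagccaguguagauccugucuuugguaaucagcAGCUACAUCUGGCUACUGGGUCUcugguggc

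In GRCm38.p6, the hairpin of Mir21a lies on the minus strand at chr11:86584067-86584158, within the span of the gene Vmp1. The hairpins of Mir221 (chrX:19146294-19146388) and Mir222 (chrX:19146893-19146971) lie on the minus strand of the X chromosome with 504 bases between them. Of the opposite arms of the 3 hairpins, the array carried that of miR-21, miR-21*, which was detected on 0 of 16 arrays.

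The signal given for a probe is the log2 of the median spot signal, brought to one distribution over the 16 arrays by quantile normalization and then averaged per probe, so that a value is relative to the other miRNAs of its array. Groups were compared with limma in 1 fit of all arrays over the 681 probes of 281 expressed miRNAs, those that the scanner software detected on at least a share of 0.5 of the arrays of a group. A probe was called changed at a Benjamini-Hochberg adjusted p of at most 0.05 if its log2 difference also reached 0.5 in either direction. Dicer1 mRNA has no probe on these arrays, so the genotypes are taken from the labels. miR-21 and miR-221 were expressed by this rule and miR-222 was not. Between 197 and 260 miRNAs were detected per array, and the summed background-subtracted miRNA signal ranged from 36495 to 60374 in E17 nerves, from 122860.0 to 154076 in p4 controls and from 56841 to 83630.1 in p4 mutants. Each slide held both genotypes but only 1 age, and therefore age and slide cannot be told apart. The number of arrays limits the precision.

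miR-21 was detected on all 16 arrays and was not called changed in any comparison of normalized signals. On its brighter probe, the log2 signals of the E17 controls were 10.20, 10.57, 10.39 and 10.39 (10.39 ± 0.15, SD, n = 4). Those of the E17 mutants were 10.82, 10.54, 10.45 and 10.66 (10.62 ± 0.16, SD, n = 4). The E17 groups overlapped, with 1 control array above 2 of the mutant arrays.

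At p4, the brighter miR-21 probe gave 10.61, 10.64, 9.99 and 10.69 in controls (10.48 ± 0.33, SD, n = 4). Mutants at p4 gave 11.05, 10.89, 10.21 and 10.52 (10.67 ± 0.37, SD, n = 4). Control replicate 3 was the lowest array of all groups, and the highest value of all groups was that of a mutant, but the p4 groups overlapped. In the order of the group means, from E17 controls over p4 controls and E17 mutants to p4 mutants, the arrays of each group overlapped with those of the next.

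The difference of miR-21 between mutants and controls was 0.19 at p4 (standard error 0.180, limma adjusted p = 0.427), with a 95% interval from -0.20 to 0.57 before adjustment. Leaving out p4 control replicate 3 brought this value to 0.02. At E17 it was 0.23 (standard error 0.180, limma adjusted p = 0.455), with an interval from -0.16 to 0.62. The effects of the genotype at p4 and at E17 differed by -0.04 (limma adjusted p = 0.946, interval from -0.59 to 0.50). An upward difference of the called size lay within all 3 intervals, and a downward one of that size only within the last.

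From E17 to p4, miR-21 differed by 0.09 in controls (limma adjusted p = 0.735, 95% interval from -0.29 to 0.48). In mutants the same difference was 0.05 (limma adjusted p = 0.884, interval from -0.34 to 0.44). The dimmer miR-21 probe, with group means between 8.47 and 8.60, gave differences between 0.01 and 0.12 in these 4 comparisons, with limma adjusted p-values from 0.539 to 0.955. Both probes therefore gave small upward values with all groups overlapping.

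**Figure D1:**
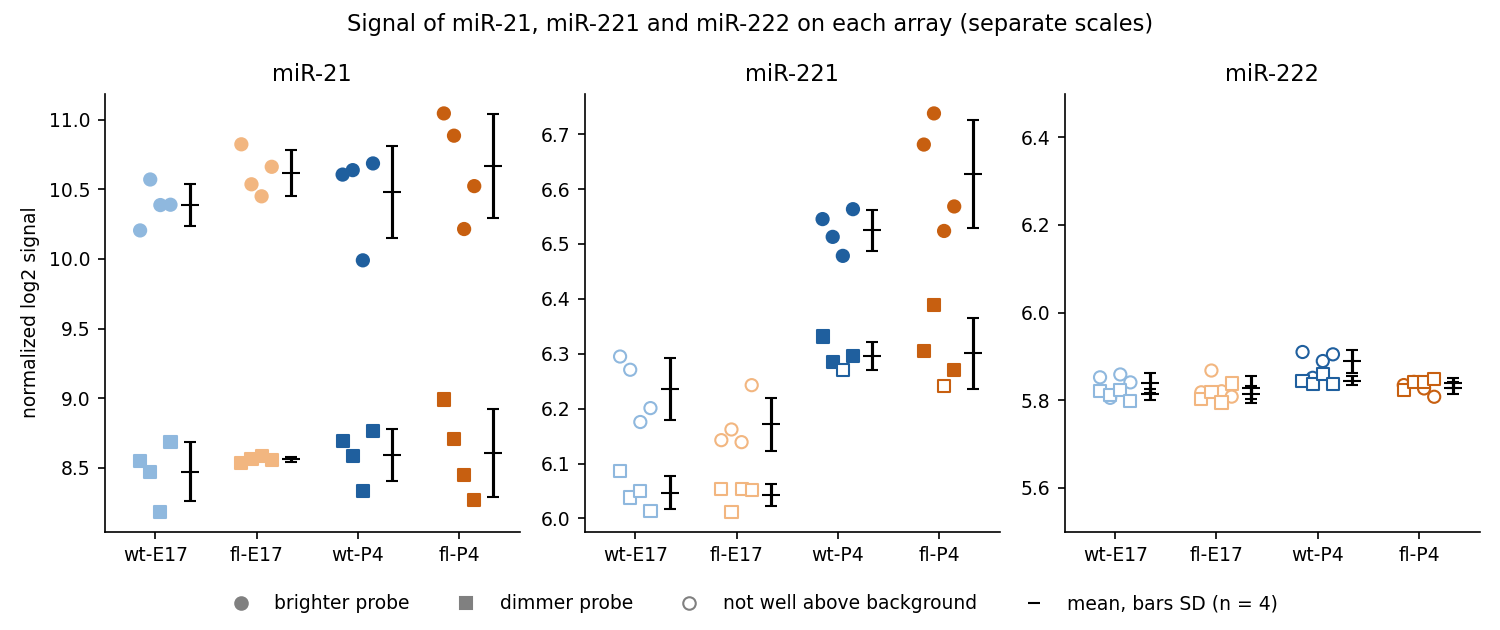
Normalized log2 signal of miR-21, miR-221 and miR-222 on each array, by group on the x axis, with circles for the brighter and squares for the dimmer probe of a miRNA. Black bars are the mean and SD of 4 arrays, open symbols are probes not well above background, and each panel has its own scale. miR-21 overlaps between all groups, the 8 p4 arrays of miR-221 lie above its 8 E17 arrays on the same probe, and every symbol of miR-222 is open.

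miR-221 was far dimmer, was higher at p4 than at E17 in both genotypes, and did not pass the limits for a call because the differences in normalized signal were under 0.5. On its brighter probe, E17 controls had log2 signals of 6.29, 6.27, 6.18 and 6.20 (6.24 ± 0.06, SD, n = 4). E17 mutants had 6.14, 6.16, 6.14 and 6.24 (6.17 ± 0.05, SD, n = 4). These arrays overlapped, and the probe was well above background on 0 of the 8 E17 arrays.

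At p4, the brighter miR-221 probe was well above background on all 8 arrays. Controls had 6.55, 6.51, 6.48 and 6.56 (6.53 ± 0.04, SD, n = 4), and mutants had 6.68, 6.74, 6.52 and 6.57 (6.63 ± 0.10, SD, n = 4). Every p4 array lay above every E17 array, whereas the genotypes overlapped at p4. In the order of the group means, E17 mutants and E17 controls did not differ beyond their spread, nor did p4 controls and p4 mutants, and the step between the E17 and the p4 groups was the one without overlap.

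In controls, miR-221 differed by 0.29 between p4 and E17 as log2 signal (standard error 0.0461, limma adjusted p = 0.000220, higher on 4 of 4 arrays). In mutants the difference was 0.46 (standard error 0.0461, limma adjusted p = 8.95e-06, higher on 4 of 4 arrays). Both differences passed the limit on the adjusted p and stayed under the limit on size. The brighter probe did not overlap between the ages in the upward direction for 23.5% of the 281 expressed miRNAs in controls and for 12.5% in mutants. Because no E17 array had this probe well above background, the folds are bounds, computed by giving each E17 array the dimmest level that it measured well above background: at least 1.17-fold higher in p4 controls and at least 1.16-fold higher in p4 mutants.

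The dimmer miR-221 probe was well above background on 3 of 4 arrays of each p4 group and on no E17 array. It gave a difference with age of 0.25 in controls (limma adjusted p = 2.26e-05) and of 0.26 in mutants (limma adjusted p = 3.74e-05), again without overlap. For this probe the bound was above the p4 mean, so no fold is given.

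Between the genotypes, miR-221 differed by 0.10 at p4 (standard error 0.0461, limma adjusted p = 0.0873, 95% interval from 0.00 to 0.20 before adjustment). At E17 the value was -0.06 (limma adjusted p = 0.413, interval from -0.16 to 0.04). The effects of the genotype at the 2 ages differed by 0.17 (limma adjusted p = 0.107, interval from 0.03 to 0.31), and by 0.16 with array weights, where the limma adjusted p was 0.0415. The dimmer probe gave 0.00 at both ages (0.00496 at p4 and -0.00422 at E17). Differences of the called size lay outside all of these intervals.

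Of the 2 expressed miRNAs, 0 were called in each of the 5 comparisons by limma, and 0 had an unadjusted p of at most 0.05 together with the limit on size. Over all 281 expressed miRNAs, 21% were called between the genotypes at p4 (10.3% higher and 10.7% lower in mutants), 6.05% at E17 (3.56% higher and 2.49% lower), 20.3% between the ages in controls (8.19% higher and 12.1% lower at p4), 10.7% between the ages in mutants and 9.61% for the difference between the genotype effects. Without the limit on size, miR-221 had an unadjusted p of at most 0.05 from limma in 4 of the 5 comparisons and miR-21 in none, and by the methods' t-test miR-221 had one in both comparisons of the ages and in neither comparison of the genotypes. Of both miRNAs, 0 of 2 did not overlap between the genotypes at p4, where 24.2% of the expressed miRNAs lay apart upward and 24.2% downward. At E17, it was also 0 of 2, with 11% apart upward and 13.9% downward.

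miR-222 was detected on 0 of 16 arrays. The log2 signals of its brighter probe lay between 5.81 and 5.91 on all arrays, those of the dimmer probe between 5.79 and 5.86, and both probes were not well above background on all 16 arrays. Its background-subtracted gene signal was negative throughout, from -4.59 to -1.38 scanner units, so that the level of miR-222 had no measured order among the groups. In a limma fit without the filter on detection, over 1857 probes, the brighter probe differed by -0.06 between the genotypes at p4 (adjusted p = 0.0351) and the dimmer probe by -0.01 (adjusted p = 0.880). As both groups lay below background, no fold is given. miR-222 was thus not detectable in these nerves at the sensitivity of the array, whereas miR-221, from the neighbouring hairpin, was.

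Quantile normalization gives all arrays the same distribution of signals, and median spot signals still hold the background of the slide, so that background enters both sides of a log2 difference, more so for a dim probe such as that of miR-221. The background-subtracted gene signal of the scanner software, which sums the probes of a miRNA before any scaling between arrays, was therefore compared as well. For miR-21, it was 678, 838, 505 and 922 scanner units in E17 controls and 684, 770.0, 643 and 681 in E17 mutants. The E17 groups overlapped.

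The p4 controls had miR-21 gene signals of 2278, 2629, 2050.5 and 2318 scanner units, against 1422, 1770.4, 1103 and 1041 in p4 mutants. All p4 controls lay above all p4 mutants, and both p4 groups lay above the E17 groups. The summed signal of all miRNAs was likewise higher in all p4 controls than in all p4 mutants. How many other miRNAs lay apart in gene signal or in share was not counted. On the log2 scale, the gene signal of miR-21 differed by -0.83 between mutants and controls at p4 (exact two-sided permutation p = 0.0286, adjusted p = 0.0457 over 8 tests of miR-21 and miR-221), which left 56.4% of the control signal. With 4 arrays per group, no exact permutation p can be below 0.0286. The adjusted value of this smallest p depends on how many of the 8 tests reached it. The comparisons of the ages, in which age and slide cannot be told apart, were among those. miR-222, without a positive gene signal, had no test. At E17 the difference between the genotypes was -0.05 (exact permutation p = 0.886), or 96.6% of the control signal. With any 1 of the 4 p4 controls left out, the p4 difference lay between -0.76 and -0.88, and the exact permutation test of 3 arrays against 4 gave an adjusted p of 0.0914. That p was above the limit of 0.05, although the p4 controls left still lay above all p4 mutants.

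This decrease has to be set beside that of all miRNAs together. The summed signal of all miRNAs in p4 mutants was 51.3% of that in controls (exact permutation p = 0.0286), a log2 difference of -0.96, and at E17 it was 88.7% (exact permutation p = 0.400). As a share of the summed signal, miR-21 made up 1.76%, 1.71%, 1.55% and 1.89% in p4 controls and 2.19%, 2.12%, 1.94% and 1.44% in p4 mutants. These shares overlapped, and their means of 1.73% and 1.92% differed by 0.193 percentage points (exact permutation p = 0.343, adjusted p = 0.392).

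At E17, the shares of miR-21 ranged from 1.33% to 1.68% in controls and from 1.45% to 1.74% in mutants and overlapped (exact permutation p = 0.286). With age, the gene signal of miR-21 was 3.22-fold higher in controls and 1.88-fold higher in mutants (exact permutation p = 0.0286 and adjusted p = 0.0457 for each), without overlap. With any 1 of the p4 controls left out, the log2 difference in controls stayed between 1.63 and 1.74, beside 1.69 with all arrays, and the adjusted p of 3 arrays against 4 was 0.0571 (exact permutation). The summed signal of all miRNAs was higher with age by 1.46 on the log2 scale in controls and by 0.67 in mutants (exact permutation p = 0.0286 each). The share of miR-21 was 1.48% ± 0.16 at E17 and 1.73% ± 0.14 at p4 in controls (SD, n = 4, exact permutation p = 0.0571), which did not pass the limit.

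The miR-221 gene signal was 14.5, 11.9, 7.79 and 14.4 scanner units in E17 controls and 7.10, 10.98, 11.3 and 10.6 in E17 mutants. The scanner software detected miR-221 on 3 of 4 arrays of E17 controls, on 1 of 4 of E17 mutants and on all 8 p4 arrays. At p4 it was 48.1, 58.2, 44.4 and 44.0 in controls and 37.4, 47.8, 29.7 and 35.3 in mutants. The ages lay apart in both genotypes, and 1 of the p4 mutant arrays lay within the range of the p4 controls.

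With age, the gene signal of miR-221 was higher on 4 of 4 arrays in controls and in mutants (exact permutation p = 0.0286, adjusted p = 0.0457 for each). No fold is given, as 0 of the 8 E17 arrays had a miR-221 probe well above background. In controls, the adjusted p of 3 arrays against 4 was 0.0571 (exact permutation) with any 1 p4 control left out, while all p4 arrays still lay above the E17 arrays. Between the genotypes at p4, it differed by -0.39 on the log2 scale (exact permutation p = 0.0857, adjusted p = 0.114), or 76.6% of the control signal, beside the 51.3% of all miRNAs together. Without p4 mutant replicate 2 it was -0.51 and past the limit (exact permutation, adjusted p = 0.0381). At E17 the genotypes overlapped (exact permutation p = 0.371).

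As a share of the summed signal, miR-221 made up 0.0372%, 0.0378%, 0.0336% and 0.0358% in p4 controls. In p4 mutants the shares were 0.0576%, 0.0572%, 0.0523% and 0.0488%, each above every control. The summed signal that divides these shares was 51.3% of that in controls. How many other miRNAs lay apart in share was not counted. The mean share of miR-221 was 1.49 times that of controls (exact permutation p = 0.0286). The p adjusted over the 8 tests of shares was 0.0762, above the limit of 0.05. The same smallest p was adjusted to 0.0457 for gene signals, as more of those tests reached it. The adjusted p of exact permutation therefore does not rank the shares against the gene signals. The same adjusted p of 0.0762 (exact permutation p = 0.0286) belonged to both comparisons of the ages, with shares from 0.0213% to 0.0286% in E17 controls and from 0.0181% to 0.0271% in E17 mutants. The shares of the E17 groups overlapped (exact permutation p = 0.714).

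**Figure D2:**
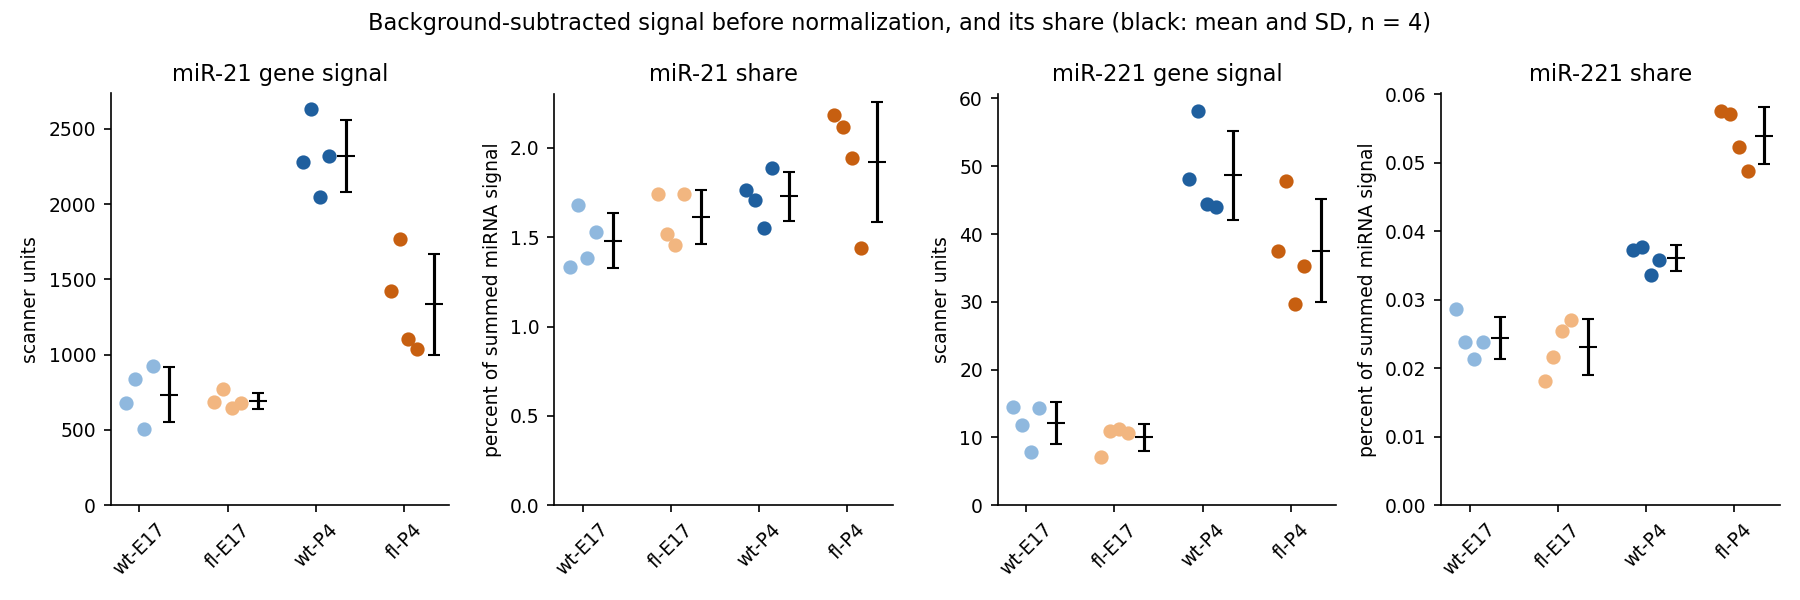
Background-subtracted gene signal in scanner units and its share of the summed miRNA signal in percent, for miR-21 and miR-221 on each array by group, with black bars for the mean and SD of 4 arrays. The gene signal of miR-21 is lower in all p4 mutants than in all p4 controls while its share overlaps. The share of miR-221 is higher in all p4 mutants, from 0.0488% to 0.0576%, than in p4 controls, from 0.0336% to 0.0378%. The summed signal that divides the shares was lower in p4 mutants, and other miRNAs that lay apart were not counted.

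The direction of the genotype difference of miR-21 at p4 depended on the scaling of the signal. It was 0.19 after quantile normalization and 0.11 in the normalized intensities that the authors deposited, but -0.80 without normalization between arrays (limma adjusted p = 0.000149), which was a call, when the median of all expressed miRNAs was -0.19. Scaled to the 75th percentile of the processed signal, it was -0.04 over the probes detected on all arrays and -0.32 over all probes, with medians of 0.34 and 0.06. Relative to the median of the expressed miRNAs, the value thus ranged from -0.61 to 0.15. Under both percentile scalings, miR-21 lay at -0.38 against that median. The -0.61, without normalization, was taken against a median of probe signals that still hold background. As background-subtracted gene signal, miR-21 differed by -0.83 and the sum of all miRNAs by -0.96. That sum weighs bright miRNAs more than dim ones and does not give the change of a typical miRNA. Without normalization, the genotype effects at the 2 ages also differed for miR-21, by -0.78 (limma adjusted p = 0.0156).

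The age difference of miR-21 in controls was upward under every scaling and ranged from 0.09 to 1.69, with calls at 0.50 and 0.97 for the 2 percentile scalings and at 1.69 without normalization. That of miR-221 was upward under every scaling in both genotypes. In controls it passed the limits for a call with both percentile scalings and without normalization, and in mutants with both percentile scalings. Because the probe was well above background on 0 of the 8 E17 arrays, the sizes of these differences are not measured folds and only their direction is given here. The genotype difference of miR-221 at p4 was 0.43 over the probes detected on all arrays (limma adjusted p = 0.0203, under the limit on size). The median of the expressed miRNAs was 0.34 there. Without normalization miR-221 differed by -0.18, where that median was -0.19. Less the median, miR-221 lay at 0.085 with both percentile scalings and at 0.012 without normalization.

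**Figure D3:**
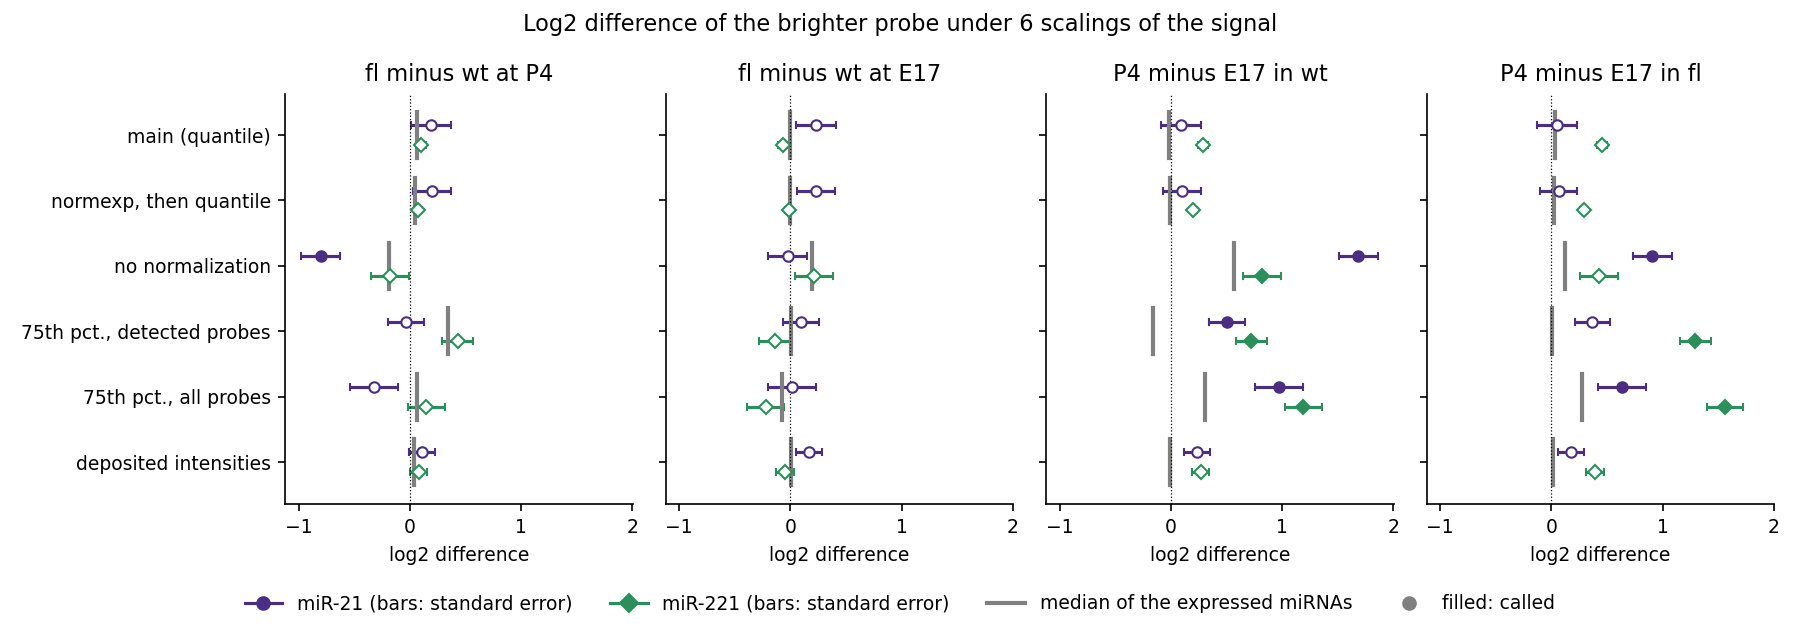
Log2 difference of the brighter probe of miR-21 (circles) and miR-221 (diamonds) with its standard error under 6 scalings of the signal, in the comparisons of the genotypes and of the ages. Grey marks are the median of the 281 expressed miRNAs and filled symbols are calls. The p4 genotype difference of miR-21 lies on both sides of 0, from -0.80 to 0.20, and both miRNAs lie at or above 0 with age.

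Other miRNAs linked to nerve injury and Schwann cell proliferation moved in both directions at p4. Of a list of 8 such miRNAs, all expressed, 1 was called higher in mutants and 4 lower, with a median log2 difference of -0.41 beside 0.06 over the 281 expressed miRNAs. miR-34a, which is known to restrain the cell cycle downstream of p53, differed by -2.26 (limma adjusted p = 9.85e-10), miR-138 by -0.94 (adjusted p = 1.72e-08) and miR-140 by -0.91 (adjusted p = 8.12e-07). miR-182 was higher by 0.60 (limma adjusted p = 0.000140). After normexp background correction and without normalization, 0 of the 8 were called higher by limma, beside 19 and 1 of the 281 expressed miRNAs. With the 75th percentile over probes detected on all arrays, 3 of the 8 were called higher, beside 107 of the 281. miR-9, the last of those called lower, differed by -0.68 (limma adjusted p = 0.000603), and miR-29a (0.40) and miR-132 (0.28) stayed under the limit on size. At E17, 0 of the 8 were called by limma, with miR-34a at -0.44 (adjusted p = 0.0192). From E17 to p4 in controls, 3 of the 8 were called higher and 1 lower, with miR-34a at 1.37.

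The miRNAs of the clusters known to promote the cell cycle, which include miR-20a and miR-92a, were lower or not called in p4 mutants. Of 9 on the array, 8 were expressed, and 4 of these were called lower in p4 mutants and 0 higher, with a median of -0.65, a direction kept under all 6 scalings. The largest differences were those of miR-20a with -1.14 (limma adjusted p = 5.94e-06) and miR-92a with -0.98 (adjusted p = 8.32e-05). At E17, 0 of the 8 were called by limma, with a median of -0.15. The miRNAs of Schwann cells and myelinating glia were lower in p4 mutants as well. miR-338-3p differed by -2.85 (limma adjusted p = 9.29e-08), miR-204 by -2.04 and miR-138, also in the list of injury, by -0.94. All 3 expressed ones of 4 were called lower, and miR-219 was not detected on any array.

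The lists of miRNAs known from other cells of the nerve held between 0 and 3 members called higher in p4 mutants, and their shares of the summed signal, given as ranges over 4 arrays, were not tested. The miRNAs of fibroblasts and smooth muscle made up between 7.07% and 8.72% of the summed signal in p4 mutants, against 3.20% to 3.67% in controls, with 3 of 4 expressed ones called higher and miR-145 never detected. For leukocyte miRNAs, the shares were 0.430% to 0.725% against 0.173% to 0.222%, with 1 of 3 called higher, and miR-142-5p and miR-150 never detected. Endothelial miRNAs made up 1.55% to 1.81% against 0.908% to 1.55%, with 1 of 2 called higher, miR-126-3p at 0.60 (limma adjusted p = 0.0123), and those of glia 0.411% to 0.632% against 3.38% to 4.59%. Without normalization between arrays, 0 of these fibroblast, leukocyte and endothelial miRNAs were called higher by limma, beside 1 of the 281 expressed miRNAs. The endothelial median turned to -0.17, where that of the expressed miRNAs was -0.19. Less that median, the fibroblast, leukocyte and endothelial lists lay at 0.43, 0.34 and 0.02. With the 75th percentile over probes detected on all arrays, 3 fibroblast, 3 leukocyte and 1 endothelial miRNAs were called higher by limma, beside 107 of the 281. The part of these cells in the levels of miR-21 and miR-221 was not tested. Muscle, erythroid and neuronal miRNAs, 4, 3 and 3 in number, gave 0, 1 and 0 calls upward and 0, 0 and 1 downward at p4.

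**Figure D4:**
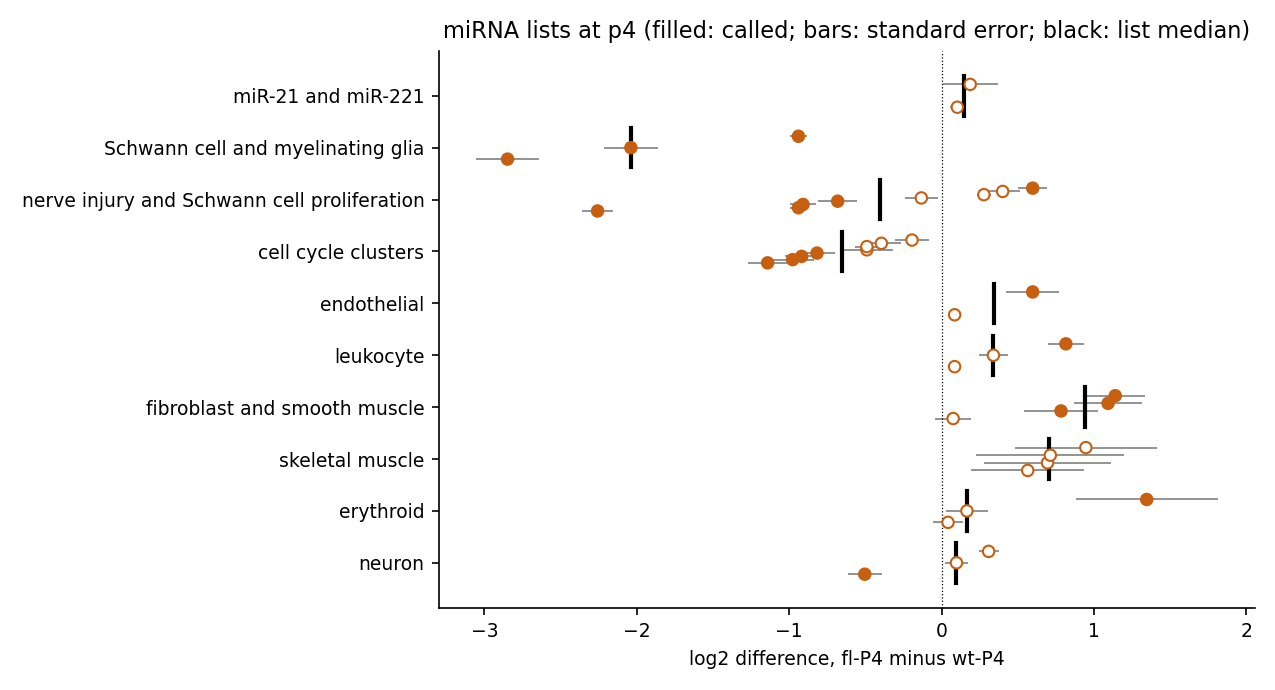
Log2 difference between p4 mutants and p4 controls for miR-21 and miR-221 and for the expressed miRNAs of 9 lists, with standard errors, filled symbols for calls and a black bar for the median of each list. miR-21 and miR-221 lie at 0.19 and 0.10, between the glial list, with a median of -2.04, and the list of fibroblasts and smooth muscle, with a median of 0.94.

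The profile of miR-21 over the 16 arrays was most like those of miR-450b-3p (Pearson r = 0.745), miR-126-3p (r = 0.728) and miR-22 (r = 0.694). miR-126-3p is the endothelial miRNA named above. The profile of miR-221 was most like those of miR-29a (r = 0.925), miR-101a (r = 0.912) and miR-155 (r = 0.894), all of which had higher means at p4 than at E17 in both genotypes. miR-21 and miR-221 correlated with each other with r = 0.295. These values describe the likeness over the 16 arrays, which share their normalization and the difference between the slides.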

How the data were processed

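Total RNA of sciatic nerves of 16 mice was hybridized to 1-colour Agilent arrays (design 021828 per the file headers). The authors deposited the intensity of every spot from Agilent Feature Extraction 10.5.1.1, not normalized between arrays, and a table of quantile-normalized probe intensities. Their methods took median signals, log2 and quantile normalization, followed here with limma 3.58.1 in R 4.3.3 (lmFit, eBayes) in place of the methods' t-test. Outlier spots were left out, and the probe with the highest mean stands for a miRNA. Permutation tests ran in Python 3.11.15 on gene signals and on shares, with negative values set to 0. The deposited files hold no mean spot signal, so normexp (offset 50) was run on the median signal and its background. On simulated data with 200 of 681 probes changed by 1 on the log2 scale, 98.5% were recovered at p4 and 99% at E17. The simulated noise was drawn on the normalized scale, so this does not test the normalization or the recovery of smaller changes. The members and lists were chosen with earlier results of these data known. miRNAs are named by the 3 chosen names, their opposite arms and seed relatives, and the 3 most alike profiles. Up to 4 are named per list, and more for the list of injury. Alternatives covered background, scaling, filter, limits, test, weights, replicate block, and single arrays. Groups follow the labels.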

Additional observations from a re-analysis of the deposited data

Results flagged for a closer look

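In the p4 controls, the normalized log2 signal of miR-21 in replicate 3 was 9.99, whereas the other 3 arrays lay between 10.61 and 10.69, a gap of 0.885 of the range of the group. Its unnormalized gene signal of 2050.5 scanner units was also the lowest of the p4 controls, but closer to the others. Without this array, the difference of miR-21 between the genotypes at p4 was 0.02 in place of 0.19, and that between the ages in controls was 0.26 in place of 0.09, both not called by limma. In the E17 mutants, the gene signal of miR-221 in replicate 1 was 7.10 scanner units and that of the other 3 arrays between 10.6 and 11.3, a gap of 0.837 of the range. Without it, the difference in the share of miR-221 at E17 turned from -0.00130 to 0.000364 percentage points. Of 24 sets of 4 values examined in this way, 2 stood out, and chance alone gives about 1 in 20.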

How the results depend on the processing

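Without normalization between arrays, miR-21 differed by -0.80 between the genotypes at p4, by -0.025 at E17, by 1.69 between the ages in controls, by 0.91 in mutants and by -0.78 between the genotype effects. miR-221 then differed by -0.18, 0.21 and 0.82 in the first 3 of these comparisons and by -0.39 in the last. The miRNAs called in the 5 comparisons, 59, 17, 57, 30 and 27, became 90, 7, 165, 65 and 86. With the 75th percentile as the scale, taken over probes that every array detected, miR-21 gave -0.039 at p4 and 0.50 between the ages in controls, miR-221 gave 0.72 in controls and 1.30 in mutants, and 173, 43, 161, 102 and 91 miRNAs were called. With the percentile over all probes, miR-21 gave -0.32 at p4, 0.97 and 0.64 with age, miR-221 gave 1.19 and 1.56, and 161 miRNAs were called at p4, 142 and 108 with age and 59 for the difference of the effects. The split of the calls at p4 moved from 29 higher and 30 lower to 1 and 89 without normalization, 107 and 66 over detected probes and 70 and 91 over all probes. After normexp, 9 miRNAs were called at E17, 33 with age in controls and 17 for the difference of the effects. The deposited intensities gave 43 and array weights 57 for the last, where miR-21 turned to 0.033. Without the filter, 10 were called at E17. With a log2 limit of 1, 14, 0, 13, 6 and 7 were called, and at E17 3 had an unadjusted p of at most 0.05 past this limit, by limma and by the methods' t-test. The methods' t-test called 56, 12, 51 and 23 in the first 4 comparisons after Benjamini-Hochberg adjustment and 57, 25, 57 and 31 at the authors' limits, and neither miR-21 nor miR-221. The cause of these changes was not tested.

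The study's methods name littermate pairs, but the labels do not say that equal replicate numbers mark littermates. Same-numbered mutants and controls correlated with r from -0.52 to 0.09 at E17 and from -0.28 to 0.46 at p4. The numbers were not taken as pairs in the main fit, although these correlations cannot exclude a pairing. With the replicate number as a block, miR-21 had 0.19 at p4 (limma adjusted p = 0.244), with a standard error of 0.120 in place of 0.180. miR-221 had 0.10 (limma adjusted p = 0.104), and no call of either changed. For the gene signal of miR-21 at p4, -0.83, an exact sign-flip test of these pairs gave p = 0.125, the smallest it can give.

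With any 1 array left out, miR-21 ranged from 0.02 to 0.34 at p4, from -0.077 to 0.20 with age in mutants and from -0.21 to 0.11 for the difference of the effects. The count at E17 ranged from 8 to 23 and that of the difference of the effects from 23 to 42. The share of miR-221 at E17 differed by -0.00265 to 0.000364 percentage points. The gene signal of miR-21 ranged from -0.22 to 0.072 at E17, from -0.97 to -0.72 at p4 and from 1.52 to 1.81 with age in controls, and that of miR-221 from -0.51 to -0.28 at p4 and from 1.84 to 2.14 with age in controls. Without any 1 of the 4 p4 controls, the exact permutation test of 3 arrays against 4 gave an adjusted p of 0.0914 for miR-21 at p4 and of 0.0571 for both miRNAs with age in controls, which says nothing of stability in so small a design.

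The probe signals of miR-221 at E17 and of miR-222 on all arrays were not well above background, so that the differences of miR-221 with age given here are not measured folds.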
